A study of Mus musculus with 4 samples.

Results

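The genes described here are 10 named mucins and mucous-cell genes. They were chosen by name and not by their values: the secreted gel-forming mucins Muc2, Muc5ac and Muc5b, the transmembrane mucins Muc1, Muc4, Muc16 and Muc20, and the mucous-cell genes Agr2, Spdef and Fcgbp. Rows with these symbols were found for 9 of the 10 genes among 24421 listed genes, and the level of Muc16 was not analysed here. The RNA came from 4 mice with a C57BL/6 background, 2 without Usp25 (Usp25-/-, animals 826 and 850) and 2 with the gene intact (Usp25+/+, animals 139 and 140). Usp25 encodes an enzyme that strips ubiquitin from proteins. The tissue is labelled as colon. All animals are labelled as females of 8 weeks that were given 2.5% dextran sulfate sodium (DSS), an agent that damages the colon lining, in their water for 5 days and normal water for the following 2 days. No group without DSS was analysed here. The sources used here do not say how the Usp25 allele was made or whether the knockouts were littermates of the controls.

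Mucins are large proteins whose central stretches of serine, threonine and proline carry dense O-linked sugars. Gel-forming mucins are packed into granules, released and swell into mucus, with Muc2 as the chief mucin of the colon and Muc5b and Muc5ac as those of the airways. Transmembrane mucins stay on the cell surface, where they form part of the glycocalyx and can signal through their short cytoplasmic tails. Agr2 is a protein disulfide isomerase of the endoplasmic reticulum that is needed for mucin folding, Spdef is an Ets family transcription factor that drives goblet cell maturation, and Fcgbp is a mucus protein that binds to Muc2.

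The levels of these genes went against the labelled tissue. Levels are given in FPKM, which counts sequenced fragments per length of transcript and per amount of mapped sequence in the library, so that levels of different genes can be compared. The number of reads behind them is unknown, and 15603 to 20556 genes were listed above 0 in a library. Muc2 stood at 0.0436 and 0 FPKM in Usp25-/- mice, against 0.193 and 0.0550 FPKM in Usp25+/+ mice. Some other genes known from the colon lining were also low. Among goblet cell products of the colon, Zg16 and Spink4 were listed at 0 in all 4 libraries, and Clca1 did not exceed 0.133 FPKM. Of 15 colon goblet genes found 9 were under 1 FPKM in every library, and of 15 absorptive colonocyte genes 8, with 3 at 0 throughout. The goblet list shares genes with the members, with Muc2 and Fcgbp among the 9 and Agr2 among those tested. Others on these lists were not low. Car4 stood at 277 and 367 FPKM in Usp25-/- mice, against 193 and 399 FPKM in Usp25+/+ mice. Ccl9 stood at 181 and 67.7 FPKM in Usp25-/- mice, against 180 and 44.0 FPKM in Usp25+/+ mice. The genes of these lists that could be tested, 6 and 5, had positive log2 fold changes between the genotypes, with medians of 1.07 and 2.18, which were 0.54 and 0.84 without animal 826. Relative to the epithelial genes 3 of the 6 and 3 of the 5 were positive, where the median over all tested genes was -0.91. Of them, Tff3 was listed at 0 in both Usp25+/+ libraries and Guca2a stayed under 1 FPKM there, so that both passed the filter on low values through the Usp25-/- libraries. Genes of lung tissue were abundant. The 12 genes known from alveolar type 2 cells had medians of 58.2 and 89.1 FPKM in Usp25-/- mice, against 68.1 and 61.9 FPKM in Usp25+/+ mice. The Y-linked gene Eif2s3y ranged from 27.8 to 44.7 FPKM, although the animals are labelled female. The values below are therefore those of libraries labelled by genotype, and are not taken as measurements of the colon. Usp25 itself followed the labels, at 2.65 and 1.71 FPKM in Usp25-/- mice, against 38.5 and 16.6 FPKM in Usp25+/+ mice, and its difference in log2 was -3.07 (SE 0.47; limma adjusted p = 0.960).

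Muc1, Agr2 and Muc5b carried most of the signal. Together they made up 94.7% and 96.9% of the summed FPKM of the 9 genes in Usp25-/- and 94.0% and 98.3% in Usp25+/+. Averaged over the 4 libraries, Muc1 stood at 27.0, Agr2 at 21.4 and Muc5b at 11.3 FPKM, and the other 6 averaged between 0.0729 (Muc2) and 0.865 FPKM (Spdef). The ranges of Muc1, Agr2 and Muc5b overlapped one another. Muc5b, at 4.11 FPKM or more, lay above Spdef, at up to 2.14 FPKM, in all 4 libraries, while each of the lower neighbours in the order (Spdef, Muc4, Muc20, Muc5ac, Fcgbp and Muc2) overlapped with the next. Spdef, Muc20, Muc5ac and Muc2 were each listed at 0 in 1 library.

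**Figure D1:**
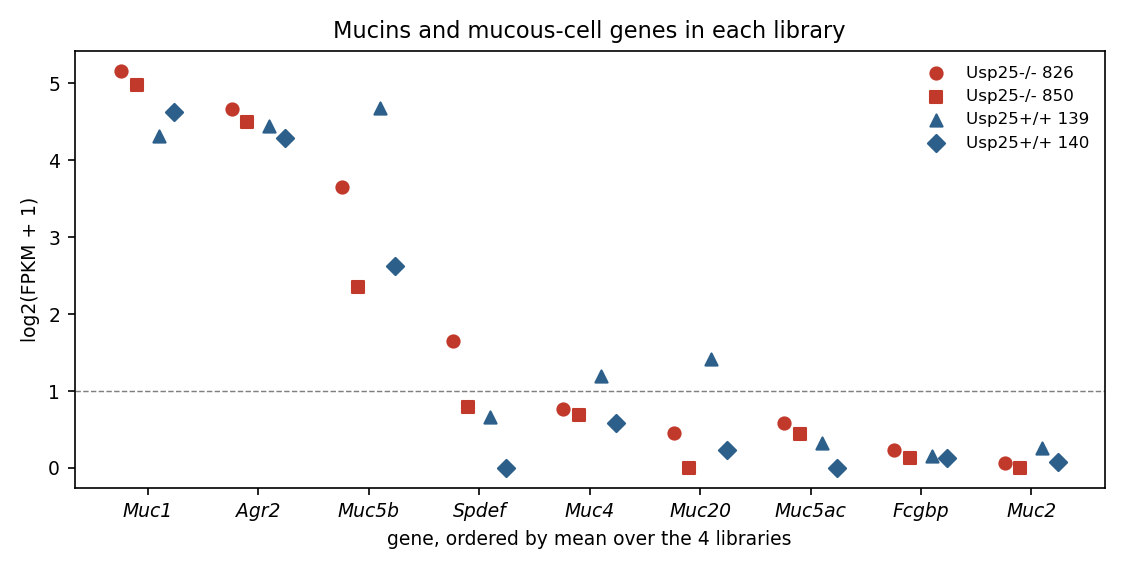
Each point is the level of 1 gene in 1 library, as log2(FPKM + 1), with genes ordered by their mean and the dashed line at 1 FPKM. Muc1 and Agr2 are the 2 highest genes, Muc5b spreads from 4.11 to 24.6 FPKM, and the other 6 genes lie at or under 2.14 FPKM.

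The genotypes were compared with limma on log2(FPKM + 1) over the 12011 genes whose mean reached 1 FPKM, with Benjamini-Hochberg adjustment over all of them. Only Muc1, Agr2 and Muc5b passed this filter. None of these 3 passed an adjusted p of 0.05, as was true of every gene (0 of 12011, or 0%), and 375 genes (3.12%) had an unadjusted p under 0.05, with 2.11% higher and 1.01% lower in Usp25-/- mice. None of these 375 was a member. With 2 libraries in each genotype, an exact permutation test of 1 gene cannot give a p below 0.333.

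Muc1 was higher in both Usp25-/- libraries. This transmembrane mucin covers the apical surface of most simple epithelia, including that of the lung. It was listed at 34.8 and 30.5 FPKM in Usp25-/- animals 826 and 850, against 18.8 and 23.6 FPKM in Usp25+/+ animals 139 and 140. The genotypes did not overlap, which held in this direction for 19.0% of all genes tested. The means were 32.7 ± 3.06 and 21.2 ± 3.39 FPKM (SD, n = 2 each). The log2 fold change was 0.61 (SE 0.29, 95% confidence interval -0.14 to 1.35), with a limma adjusted p of 0.960. In bulk RNA, fewer cells of a type and less RNA per cell cannot be told apart. Of all tested genes, 9.52% had a larger log2 fold change than Muc1. Genes of epithelial cells in general were also higher in Usp25-/- mice on the reported scale: all 20 of a list with Epcam, Cdh1 and keratins had a positive log2 fold change, and in 16 of the 20 it exceeded that of Muc1. Their summed level was 4151 and 1646 FPKM in Usp25-/- mice, against 1127 and 1011 FPKM in Usp25+/+ mice, and 19 of the 20 were highest in animal 826. Expressed per FPKM of Epcam, an adhesion molecule of epithelial cells, Muc1 stood at 0.170 and 0.437 in Usp25-/- and at 0.326 and 0.660 in Usp25+/+. Relative to the 20 genes the log2 fold change of Muc1 was -0.34 (SE 0.81). The median over all tested genes was -0.91 on that scale.

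Muc1 lies on the plus strand of mm9 at chr3:89032979-89037303, in 7 exons. Mucins are recognised by coding sequence rich in serine and threonine, to which the sugars attach, and in proline. Serine, threonine and proline took 44.1% of the codons of Muc1, against a median of 18.8% over 21797 genes. The share was 44.8% in Muc4, 43.5% in Muc20, 33.8% in Muc5b, 25.95% in Muc5ac and 23.4% in Muc2. It lay between 19.0% and 20.3% in the non-mucins Agr2, Spdef and Fcgbp. All are shares of annotated transcripts, which had 2251 codons for Muc2 and 2751 for Muc5ac. Whether these hold the whole coding sequence was not tested. The annotated transcript of Muc16, with 258 codons, had 20.2%, within the range of the non-mucins. This model spans chr9:18299899-18317329 on the minus strand of mm9. The 250 bases before the RefSeq start of Muc16 lie far upstream of it, at chr9:18479048-18479297. The model may thus hold only a part of the gene, and its share is not taken as that of all of Muc16. Cysteine, which links gel-forming mucins into polymers, took 9.02% of the codons of Muc2, 8.51% of Muc5ac, 6.27% of Muc5b and 8.44% of Fcgbp, against 0.475% of Muc1, 0.581% of Muc20 and 1.38% of Muc4. No stretch of 100 bases, the labelled read length, recurs within the transcript of Muc1. In Muc5b 16.03% of such stretches recur and in Muc4 2.31%, so that single reads from them have more than one place within the gene.

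Muc4 and Muc20, the other transmembrane mucins, were at 1.66 FPKM or below. Muc4, which can bind the ErbB2 receptor, was listed at 0.704 and 0.614 FPKM in Usp25-/- mice, against 1.29 and 0.497 FPKM in Usp25+/+ mice. Muc20 was listed at 0.366 and 0 FPKM in Usp25-/- mice, against 1.66 and 0.181 FPKM in Usp25+/+ mice. For both genes animal 139 was highest, and the genotypes overlapped. Without the filter their log2 fold changes were -0.16 (SE 0.34) and -0.60 (SE 0.44). The genes share a locus: on mm9 Muc4 runs at chr16:32735972-32782477 on the plus strand and Muc20 at chr16:32777505-32797521 on the minus strand. Their 3′ ends overlap by 4973 bases, of which 627 are exonic in both. Because the library kit did not keep strand, reads from those 627 bases cannot be assigned to one of the 2 genes.

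Muc5b was the most abundant gel-forming mucin of these libraries, and it was highest in 1 of the 2 Usp25+/+ animals. It was listed at 11.5 and 4.11 FPKM in Usp25-/- mice, against 24.6 and 5.18 FPKM in Usp25+/+ mice. Animal 139 was highest and animal 850 lowest, and the genotypes overlapped. The means were 7.81 ± 5.24 and 14.9 ± 13.7 FPKM (SD, n = 2 each). The log2 fold change was -0.65 (SE 0.80, 95% confidence interval -2.68 to 1.38; limma adjusted p = 0.960). This value depended on single libraries and was 0.37 without animal 139, -1.68 without 140, -1.30 without 826 and -0.01 without 850. Muc5b made up 92.7% and 86.0% of the FPKM of the gel-forming mucins Muc2, Muc5ac, Muc5b, Muc6 and Muc19 in Usp25-/-, and 94.5% and 94.4% in Usp25+/+. Per FPKM of Muc1 it stood at 0.330 and 0.135 in Usp25-/- and at 1.31 and 0.219 in Usp25+/+, so that animal 139 was the only library with more Muc5b than Muc1. Relative to the 20 epithelial genes the log2 fold change was -1.60 (SE 0.83), against a median of -0.91 over all tested genes. The genotypes then did not overlap, as for 58.9% of all genes on that scale.

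Genes known from neutrophils, and most of those from airway secretory cells, were also highest in animal 139. Of 12 airway secretory genes, which include the club cell product Scgb1a1, 8 were highest there. Their summed level was 697 and 1035 FPKM in Usp25-/- mice, against 4030 and 881 FPKM in Usp25+/+ mice. Bpifb1, a secreted protein of mucous airway cells, stood at 7.24 and 6.41 FPKM in Usp25-/- mice, against 27.8 and 4.23 FPKM in Usp25+/+ mice. All 15 neutrophil genes were highest in 139, with a summed level of 4352 and 2252 FPKM in Usp25-/- mice, against 56553 and 1575 FPKM in Usp25+/+ mice. Their part in the level of Muc5b was not tested.

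Muc5ac, the mucin of gastric surface cells and of airway goblet cells, stood at 0.504 and 0.363 FPKM in Usp25-/- mice, against 0.248 and 0 FPKM in Usp25+/+ mice. It did not pass the filter, and all 4 values were under 1 FPKM. Muc6, the gland mucin of the stomach, ranged from 0.232 to 0.547 FPKM. Tff1, a trefoil peptide of the same gastric cells, stood at 1848 and 759 FPKM in Usp25-/- mice, against 71.3 and 105 FPKM in Usp25+/+ mice. Among genes of gastric glands, Atp4b, Pga5 and Gast were listed at 0 in every library.

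The 4 gel-forming mucins Muc6, Muc2, Muc5ac and Muc5b are neighbours on mouse chromosome 7. On mm9 Muc6 lies at chr7:148819871-148841218 on the minus strand, and Muc2 at chr7:148876268-148940595, Muc5ac at chr7:148974877-149005136 and Muc5b at chr7:149024975-149058990 on the plus strand. Only Muc5b exceeded 1 FPKM. The next gene beyond it, Tollip, an adaptor that restrains Toll-like receptor signals, lies 1.7 kb away on the other strand. Like Muc5b, it was highest in animal 139. Tollip was listed at 15.9 and 15.5 FPKM in Usp25-/- mice, against 32.6 and 20.3 FPKM in Usp25+/+ mice. Ap2a2, a clathrin adaptor subunit on the far side of Muc6, stood at 24.04 and 25.1 FPKM in Usp25-/- mice, against 20.6 and 21.2 FPKM in Usp25+/+ mice. The mucins with values near 0 thus lay between transcribed genes.

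**Figure D2:**
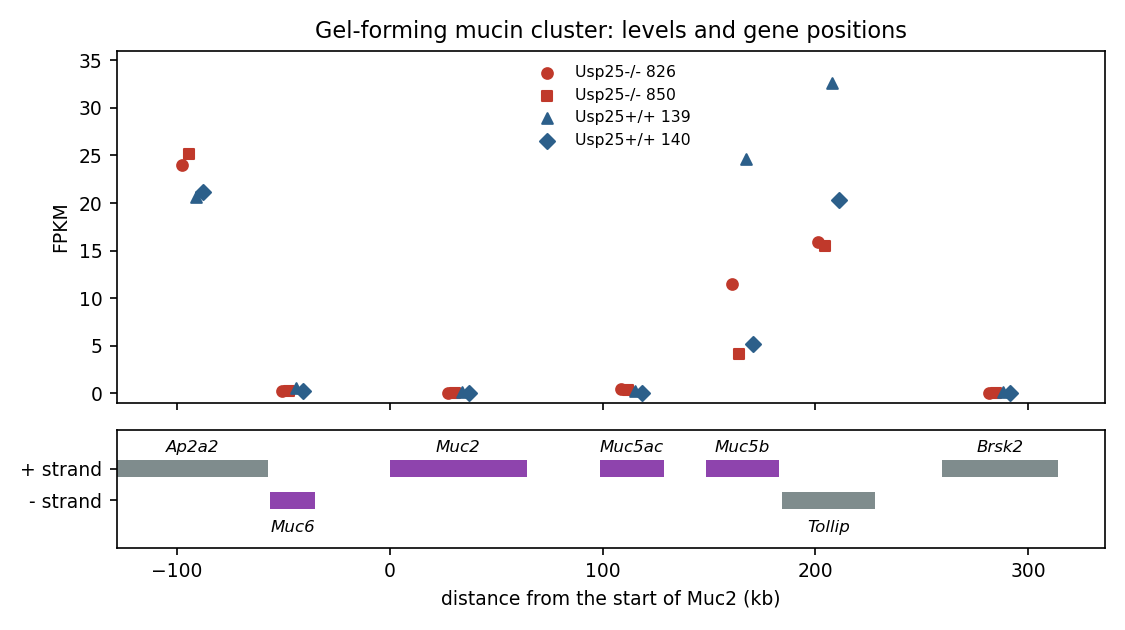
The upper panel gives the FPKM of each gene in each library, placed at the middle of the gene, and the lower panel the genes by strand as distance from the start of Muc2. Muc6, Muc2 and Muc5ac lie at or under 0.547 FPKM in all libraries, while Muc5b and its neighbour Tollip are highest in animal 139.

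Agr2 had the narrowest range of the 3 tested members and differed little between the genotypes. It was listed at 24.4 and 21.6 FPKM in Usp25-/- mice, against 20.9 and 18.6 FPKM in Usp25+/+ mice. The genotypes did not overlap, by a margin of 21.6 to 20.9 FPKM, and they overlapped after median-of-ratios scaling. The means were 23.0 ± 1.99 and 19.7 ± 1.58 FPKM (SD, n = 2 each), with a log2 fold change of 0.21 (SE 0.28, 95% confidence interval -0.50 to 0.92; limma adjusted p = 0.960). It was 0.13 without animal 140 and also 0.13 without 826. Among all tested genes, 33.1% had a larger log2 fold change, as did 19 of the 20 epithelial genes. Against a median of -0.91 over all tested genes, Agr2 stood at -0.74 (SE 0.81) relative to these 20. On that scale its genotypes lay apart in the other direction. Agr2 minus the epithelial mean was -1.32 and -0.49 in Usp25-/-, against -0.21 and -0.14 in Usp25+/+. Genotypes did not overlap for 58.9% of all genes there. Its close relative Agr3, on the same chromosome (mm9 chr12:36652207-36676323, against chr12:36719494-36730674 for Agr2), was listed at 0 and 1.39 FPKM in Usp25-/- mice, against 0.856 and 1.68 FPKM in Usp25+/+ mice. Agr2 was thus at 18.6 FPKM or more in libraries where Muc2 and Fcgbp were near 0.

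Spdef and Fcgbp did not pass the filter. Spdef was listed at 2.14 and 0.735 FPKM in Usp25-/- mice, against 0.588 and 0 FPKM in Usp25+/+ mice, so that animal 826 was highest and the genotypes did not overlap. In a fit without the filter its log2 fold change was 0.89 (SE 0.43, 95% confidence interval -0.17 to 1.94; limma adjusted p = 0.964). Fcgbp ranged from 0.0945 to 0.177 FPKM, and 5.24% of its 100-base stretches also occur in other annotated genes. Spdef lies at chr17:27851297-27865896 and Fcgbp at chr7:28856255-28905881 on mm9.

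On the reported scale Muc1 and Agr2 were the tested members whose genotypes lay apart in the same direction. The 250 bases before their RefSeq starts (table build GRCm38.p6) are printed to show what these promoters hold. Each sequence matched the NCBIM37 assembly, also called mm9, at 1 place on the plus strand, at chr3:89032728-89032977 for Muc1 and at chr12:36719262-36719511 for Agr2. Capitals mark the Ets core GGAA, on either strand (TTCC), and TATAAA.
Muc1 promoter: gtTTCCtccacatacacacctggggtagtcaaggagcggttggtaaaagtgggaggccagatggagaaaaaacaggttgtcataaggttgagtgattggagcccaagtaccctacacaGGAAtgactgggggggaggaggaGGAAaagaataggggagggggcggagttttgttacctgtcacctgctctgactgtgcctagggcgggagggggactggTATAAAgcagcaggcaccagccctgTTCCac
Agr2 promoter: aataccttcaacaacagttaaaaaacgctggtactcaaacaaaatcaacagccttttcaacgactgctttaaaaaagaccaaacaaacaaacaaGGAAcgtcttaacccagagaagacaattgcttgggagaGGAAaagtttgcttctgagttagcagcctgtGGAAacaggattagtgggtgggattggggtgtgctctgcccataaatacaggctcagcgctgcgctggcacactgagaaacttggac
From 250 bases before to 50 after the start, GGAA was found 5 times for Muc1, 4 times for Agr2 and 7 times for Spdef. It occurs in 96.0% of 32851 promoters of this length and so does not mark these genes. TATAAA was found in those of Muc1, Muc2 and Muc4, and in 13.6% of all promoters. The Fox motifs TGTTTAC and TGTTTGC occurred in that of Muc20 among the 8 members with a promoter in the table and in 8.48% of all, and the STAT motif TTCNNNGAA in none of the 8 and in 8.30% of all. Both strands were searched, and a GGAA match can overlap an end of the STAT motif.

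The other genes of mucus formation were described by lists, none of which had a gene past the limma threshold. Over all 12011 tested genes the median log2 fold change was 0.03, with 53.5% of the genes positive and 46.5% negative. Of 22 tested enzymes of mucin O-glycosylation 15 were higher and 7 lower in Usp25-/-, with a median of 0.24. In 4 of the 22 the genotypes lay apart upward and in 2 downward, against 19.0% and 14.7% of all genes. Gcnt3, which makes the branched core structures of mucin sugars, averaged 7.20 FPKM in Usp25-/- and 1.38 FPKM in Usp25+/+ without overlap, and its log2 fold change was 1.68 (SE 0.60). Fut2, which adds the terminal fucose of secretor-type sugars, stood at 6.43 and 1.96 FPKM in Usp25-/- mice, against 3.15 and 0.450 FPKM in Usp25+/+ mice, which overlapped, with 0.93 (SE 0.69). Without animal 826 these values were 0.96 for Gcnt3 and 0.27 for Fut2, and without 140 Fut2 was at 0.18. St3gal6, a sialyltransferase, had the most negative one at -1.92 (SE 0.89), with 52.0 FPKM in animal 139 and 3.35 to 7.61 FPKM in the other 3 libraries. Galnt1, which attaches the first sugar, stood at 28.02 and 25.1 FPKM in Usp25-/- mice, against 27.6 and 21.1 FPKM in Usp25+/+ mice. The median of the list was -0.01 without animal 140 and 0.11 without 826. Relative to the epithelial genes it was -0.71, and 1 of the 22 enzymes was higher. On that scale the median over all tested genes was -0.91.

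Among 10 tested regulators and folding factors of mucous cells 6 were higher and 4 lower in Usp25-/-, with a median of 0.09, which was 0.23 without animal 139, 0.01 without 140 and 0.04 without 826. Foxa2, a forkhead factor of lung and gut epithelium that restrains mucous differentiation in the mouse airway, stood at 10.1 and 7.86 FPKM in Usp25-/- mice, against 2.81 and 5.06 FPKM in Usp25+/+ mice. Its log2 fold change was 1.05 (SE 0.35; limma adjusted p = 0.960), and its genotypes did not overlap. Pdia4, another disulfide isomerase, had a log2 fold change of 0.67 (SE 0.31). Stat6, the factor through which interleukin 4 and interleukin 13 induce mucous cells, stood at 33.5 and 34.9 FPKM in Usp25-/- mice, against 57.4 and 51.8 FPKM in Usp25+/+ mice, and its log2 fold change was -0.66 (SE 0.28). Il13 was listed at 0 in every library and Il4 did not exceed 0.208 FPKM. Atoh1, which commits gut cells to the secretory fate, did not exceed 0.136 FPKM.

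Of the 16 tested genes of type 2 cytokine and EGF receptor signals 7 were higher and 9 lower in Usp25-/-, with a median of -0.22 that turned to 0.20 without animal 139 and was -0.39 without 140. The EGF receptor ligands Areg and Hbegf stood at 1.38 (SE 0.61) and 0.99 (SE 0.55) in log2 fold change. Areg was listed at 878 and 282 FPKM in Usp25-/- mice, against 177 and 205 FPKM in Usp25+/+ mice. Ccl11, an eosinophil chemokine, was lower at 0.605 and 1.12 FPKM in Usp25-/- against 5.20 and 3.02 FPKM in Usp25+/+. These genes have sources other than epithelium, and neutrophil genes were highest in 139 as given above. The part of these cells in the list was not tested.

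Granule cargo and partners of mucins split. Of 11 tested genes 7 were higher and 4 lower in Usp25-/-, with a median of 0.85 that was 2.05 without animal 826 and -0.27 without 850. Tff3, among the 7, exceeded 0 only in animal 850, with 7.25 FPKM. It passed the filter on low values through that library alone, so its sign carries no weight. The higher ones included Tff1 and Gkn1, both known as products of gastric surface cells, whose log2 fold changes were 3.76 (SE 0.54) and 4.36 (SE 0.80). Of the 7 tested genes of gastric surface and glands 6 were higher, but Tff1, Tff2, Gkn1 and Gkn2 are on both lists. The 11 gastric genes that are not cargo summed to 92.8 and 26.2 FPKM in Usp25-/- mice, against 8.95 and 7.77 FPKM in Usp25+/+ mice, and their part in the cargo levels was not tested. Pigr, the receptor that carries IgA across epithelium, and Ltf, an iron-binding protein of secretions and of neutrophil granules, had -1.07 (SE 0.79) and -1.77 (SE 1.55), both with animal 139 highest. The 16 tested genes of granule exocytosis were 8 higher and 8 lower, or 6 higher after median-of-ratios scaling, with a median of -0.09 that was 0.11 without animal 139 and 0.02 without 140. Sytl2, a Rab27 effector, had 0.84 (SE 0.46), and P2ry2, the nucleotide receptor that triggers mucin release, -1.07 (SE 0.43). All 6 tested genes of mucus hydration and ion transport were higher in Usp25-/- on this scale, with a median of 0.49, and all 6 were highest in animal 826. Without 826 the median was 0.26, and without 140 it was 0.24. After median-of-ratios scaling 5 of the 6 were higher. Aqp5, a water channel of alveolar type 1 cells and airway glands, had the largest log2 fold change at 0.80 (SE 0.36), and the chloride channel Ano1 stood at 10.9 and 10.6 FPKM in Usp25-/- mice, against 7.96 and 7.29 FPKM in Usp25+/+ mice. Cftr, the chloride channel that is lost in cystic fibrosis, did not exceed 1.21 FPKM.

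Other mucin and mucin-like genes were few. Of 14 named 9 were found and 4 tested, with a median log2 fold change of 0.29, which was 0.65 without animal 139, 0.63 without 826 and -0.02 without 850. On the reported scale 3 of the 4 were higher, and 2 after median-of-ratios scaling. Dpcr1, a mucin-like gene, was listed at 96.1 and 60.3 FPKM in Usp25-/- mice, against 11.5 and 9.28 FPKM in Usp25+/+ mice, which placed it above Muc1 in Usp25-/- and below it in Usp25+/+. Cd164, a sialomucin of many cell types, differed little, at 127 and 114 FPKM in Usp25-/- mice, against 133 and 103 FPKM in Usp25+/+ mice. Muc13, the transmembrane mucin of the gut, did not exceed 0.764 FPKM. Of 8 tested mesothelial genes 6 were higher and 2 lower, with a median of 0.89, or 0.37 without animal 850. The higher ones include Gpm6a and Nkain4, which were under 1 FPKM in both Usp25+/+ libraries. Msln of this list, which binds Muc16 on mesothelial and other cells, stood at 138 and 74.1 FPKM in Usp25-/- mice, against 46.3 and 32.4 FPKM in Usp25+/+ mice. Wt1 did not exceed 1.49 FPKM.

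**Figure D3:**
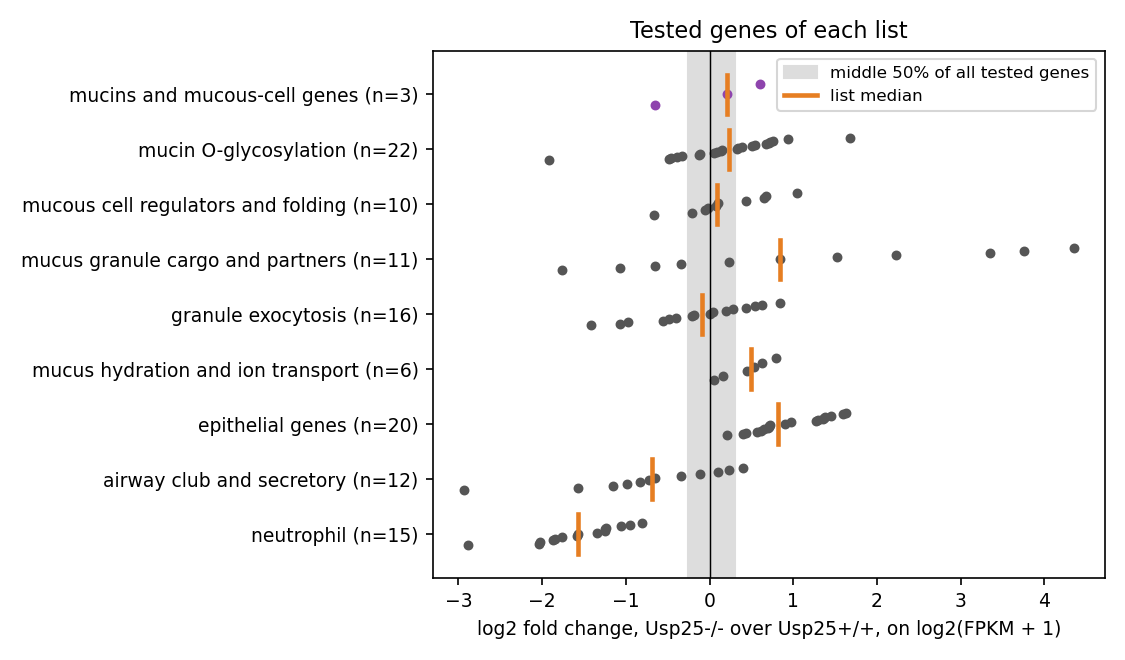
Each point is the log2 fold change of 1 tested gene, Usp25-/- over Usp25+/+, on log2(FPKM + 1), with list medians as orange bars and the middle 50% of all tested genes in grey. Muc1 (0.61), Agr2 (0.21) and Muc5b (-0.65) spread around 0. The 20 epithelial genes lie above 0 with a median of 0.81, and the 15 neutrophil genes lie below 0. Relative to the epithelial genes all 3 members are negative, as is the median over all tested genes (-0.91).

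The median log2 fold change of the 3 tested members was 0.21, and 2 of the 3 had genotypes without overlap, against 33.8% of all genes in either direction. Over all 9 members found it was 5, against 25.5% of the 21786 genes above 0 in any library, with Muc1, Agr2, Spdef and Muc5ac higher and Muc2 lower in Usp25-/-, and 3 of these 5 had means under 1 FPKM. Side by side with the marker lists, the members did not share a single profile over the libraries. Muc1 and Agr2 were highest in animal 826 with a narrow range. The epithelial genes were highest there too, but with a wider range, as their mean log2(FPKM + 1) was 5.99 and 4.99 in Usp25-/- and 4.66 and 4.43 in Usp25+/+. These lists depended on single animals, as did single genes: of 27 genes named from the lists that were checked, 16 moved by over 1.5 times in log2 fold change when 1 library was left out, and 5 of these turned sign (Galnt1, Cd164, Pigr, Ltf and Bpifb1). The median log2 fold change of the epithelial genes was 0.81, or 0.49 without animal 826 and 1.31 without 850. The airway secretory list had a median of -0.69, which was 0.08 without animal 139, -1.42 without 140 and -0.21 without 826, and the neutrophil list of -1.57, which was 0.91 without 139 and -4.02 without 140. Relative to the epithelial genes the median over all tested genes was -0.91. It was -0.66 for the other mucins, -0.85 for the regulators and -0.10 for the cargo. For exocytosis it was -1.03, for ion transport -0.45 and for the type 2 and EGF receptor signals -1.16. How far these cell types set the members' levels was not tested.

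**Figure D4:**
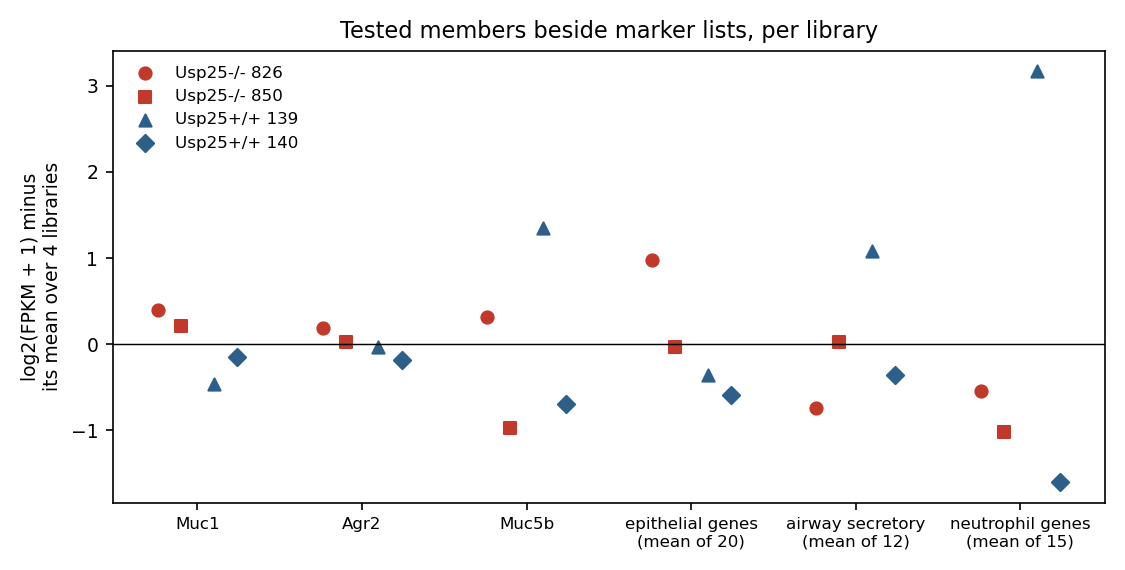
Points give log2(FPKM + 1) of each tested member, or the mean of a marker list, in each library after subtraction of its mean over the 4 libraries. Muc5b has its highest point in animal 139, as do the airway secretory and neutrophil genes, and Muc1, Agr2 and the epithelial genes have theirs in animal 826.

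The genes with the most similar profiles were sought by the root mean square distance between log2(FPKM + 1) values centred on their mean over the 4 libraries. For Muc1 the nearest were Fkbp1a, a peptidyl-prolyl isomerase, at a distance of 0.0147, and 1190007I07Rik at 0.0167. For Agr2 they were Zc3hc1 and Ttpal, at 0.00791 and 0.0119. For Muc5b they were the row named Mir18, at 0.0815, and Gpr35, an orphan receptor of epithelial and immune cells, at 0.0979. Gpr35 was listed at 15.8 and 6.23 FPKM in Usp25-/- mice, against 29.6 and 7.74 FPKM in Usp25+/+ mice. Within a distance of 0.25 there were 2040 genes for Muc1, 3588 for Agr2 and 36 for Muc5b, so that with 4 libraries the profiles of Muc1 and Agr2 are common ones.

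**Figure D5:**
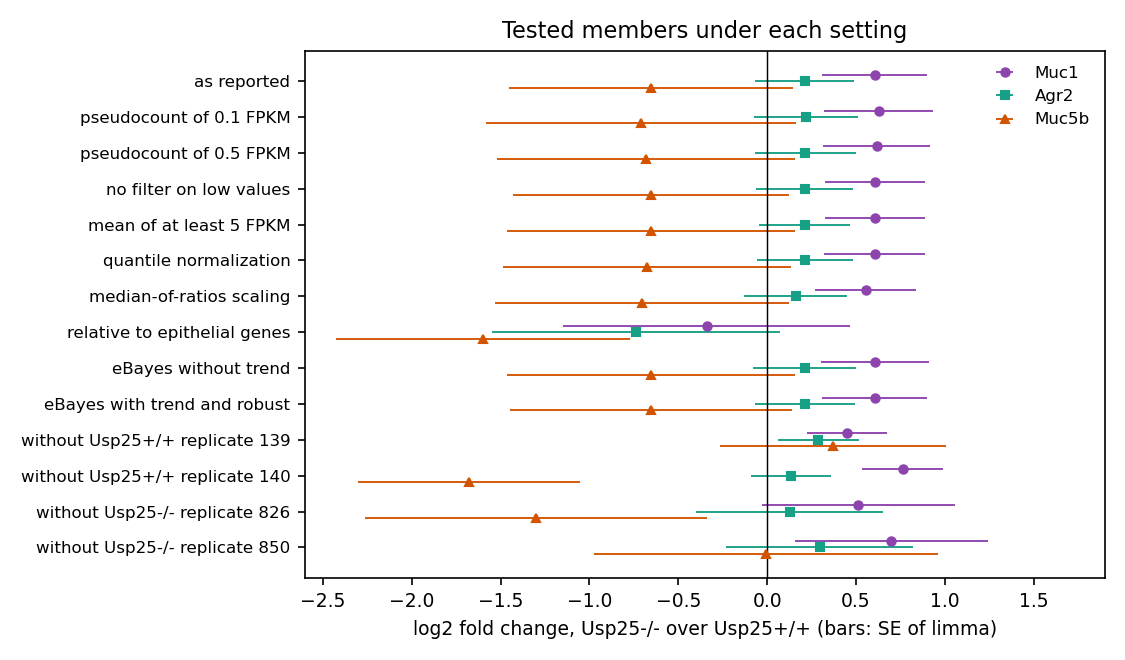
Log2 fold changes of Muc1, Agr2 and Muc5b (points, with SE of limma as bars) are given as reported and under each other setting. Muc1 and Agr2 are positive except relative to the epithelial genes, where they are -0.34 and -0.74. Muc5b is -1.60 there, against a median of -0.91 over all tested genes, and is negative except without animal 139, where it is 0.37.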

How the data were processed

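Per the labels, libraries were made from poly(A) RNA without strand information and read as pairs of 100 bases. Tools named in the submitters' processing notes are cutadapt, TopHat2 2.1.1 and Cufflinks, with build mm9; annotation and filters are not known here. The deposited values are taken as FPKM computed by the authors, since Cufflinks reports this unit and no header gives one. FPKM depends on the library total, which abundant transcripts can dominate. Depth is unknown, so counting intervals are not given, and 0 means listed at 0.

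Groups came from the sample labels, which number separate animals that pair nothing across genotypes. Log2(FPKM + 1), a scale that understates differences of low genes, was compared with limma 3.58.1 under R 4.3.3 (eBayes, trend, two-sided) for 12011 of 24421 genes, those reaching a mean of 1 FPKM, at a Benjamini-Hochberg threshold of 0.05 with 2 residual degrees of freedom. The fit was tested on simulated, normally distributed values for bias of its estimates and for false calls. The share of true changes found was not a condition of that check. Named genes were all members, per related list the tested genes with the largest log2 fold changes (at most 2 in each direction), markers near 0, and the 2 nearest profiles of members of at least 5 FPKM. Not all of these are printed, and other genes (among them neighbours of members, Bpifb1, Galnt1, Cd164, Ano1, Cftr, Epcam, Eif2s3y, Foxj1, Krt5, Rab25, Fxyd3, Dmbt1) were added after their values were seen. Members and lists were chosen with earlier results of these data known. Positions and transcripts came from GENCODE vM1 on NCBIM37 and promoters from RefSeq on GRCm38.p6, which held 8 of the 10 named genes. Coding sequence of Muc1 is not reported here. Alternatives were other pseudocounts, filters, scalings and variance models, and leaving out each library.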

Additional observations from a re-analysis of the deposited data

How the results depend on the processing

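No paired analysis was possible because the genotypes share no animal numbers. No setting called Muc1, Agr2 or Muc5b at an adjusted p of 0.05. Muc1 ranged from 0.45 to 0.76 and Agr2 from 0.13 to 0.30 in log2 fold change when a library was left out. The count of genes past the threshold was 0 in the reported fit and under all settings but 1. Relative to the epithelial genes it was 30, and there the median over all tested genes moved to -0.91. The median of the 3 tested members turned to -0.74, Muc1 to -0.34 and Agr2 to -0.74, and Muc5b moved to -1.60. The genotypes of Agr2 and Muc5b, 2 of 3 members, lay apart there, both lower in Usp25-/-. On that scale 58.9% of all genes were without overlap. This setting subtracts the epithelial mean of each library, which is highest in 826. The member median of 0.21 was 0.0387 over 9 genes without the filter, and ranged from 0.13 to 0.37 when a library was left out, with the highest value without animal 139, where Muc5b turned to 0.37; without 140 Muc5b was -1.68. Genotypes without overlap numbered 2 of 3 as reported, 5 of 9 without the filter, 1 of 3 after median-of-ratios scaling and 2 to 3 of 3 when a library was left out. Over all genes these shares were 33.8%, 25.5%, 33.7% and, with a library left out, 53.0% to 80.8%, so the counts over 3 genes show nothing particular to the members. Fits without a library assume that the remaining animal of that genotype varies like the others. The unknown depth limits what can be said of the 6 members under 1 FPKM on average.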

Other observations

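Dmbt1, a secreted glycoprotein that binds mucins and trefoil peptides, was listed at 65.6 and 74.2 FPKM in Usp25-/- mice, against 23.9 and 8.12 FPKM in Usp25+/+ mice. Fxyd3, a regulator of the sodium pump in mucous epithelia, stood at 108 and 42.3 FPKM in Usp25-/- mice, against 33.8 and 10.2 FPKM in Usp25+/+ mice, and Rab25, a recycling endosome GTPase of epithelial cells, at 35.5 and 18.3 FPKM in Usp25-/- mice, against 10.1 and 9.55 FPKM in Usp25+/+ mice. None passed the limma threshold. The 14 genes of motile cilia, the neighbours of secretory cells in the airway, included 8 tested ones, 3 higher and 5 lower in Usp25-/-. Their median log2 fold change was -0.02, or 0.39 without animal 826, -0.53 without 850, -0.49 without 139 and 0.23 without 140. Foxj1, their master factor, had the most negative of the 8 values at -0.68. It was listed at 1.04 and 3.50 FPKM in Usp25-/- mice, against 2.72 and 5.34 FPKM in Usp25+/+ mice. Krt5, the keratin of basal airway and squamous cells, stood at 0.191 and 0 FPKM in Usp25-/- mice, against 19.0 and 0.130 FPKM in Usp25+/+ mice. It stood above 1 FPKM only in animal 139, the library in which Muc5b, Muc4 and Muc20 were also highest. Krt5 is from a list of 12 squamous genes, of which 5 were tested, 2 higher and 3 lower in Usp25-/-. The 3 lower ones were highest in animal 139, but the 2 higher ones, Sprr1a and Ivl, were highest in 826.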
